A study of Mus musculus with 12 samples.

Results

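The regions described here are 446 RelA hotspots of LPS-stimulated macrophages from littermate control mice that had no counterpart in the matching library of wild-type mice. A hotspot is a stretch of genome enriched for sequence tags, as the authors listed it for 1 library. The regions were chosen by measured values: a highest tag density (MaxD) of 10 or more in the littermate RelA library at 3 h, no overlap of 1 bp or more with a hotspot of wild-type input DNA, and none with a hotspot of wild-type RelA at 3 h. The littermate 3 h list held 10130 hotspots, of which 2191 reached that density. Input removed 100 of these, 81 of which also lacked a wild-type RelA hotspot. Of the 2091 dense hotspots that were left, 1645 overlapped wild-type RelA at 3 h and 446 did not. The regions without a wild-type counterpart thus made up 21.3% of dense hotspots (95% exact Clopper-Pearson interval 19.6 to 23.1), a share fixed by the rule. All 10 lists together held 50940 hotspots.

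RelA is a DNA-binding subunit of NF-kB. In resting cells NF-kB is held in the cytoplasm by IkB proteins. Lipopolysaccharide (LPS), found on the surface of Gram-negative bacteria, is sensed through Toll-like receptor 4 and releases NF-kB to the nucleus, where it binds enhancers and promoters of inflammatory genes. Ikaros, encoded by Ikzf1, is a zinc finger protein best known from lymphocyte development, and it can recruit chromatin remodelling complexes.

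All cells were bone-marrow-derived macrophages, primary cells grown from marrow of C57BL/6J mice. RelA was immunoprecipitated from littermate control cells and from wild-type cells after 0, 3 and 8 h of LPS, and Ikaros from wild-type cells at the same times. Input DNA came from untreated wild-type cells. The label "Littermate control" gives no further genotype, and no Ikaros library of littermate cells was analysed here. Input DNA of the littermate control and Ikzf KO cells was not analysed here. The input filter thus rests on wild-type cells alone and cannot remove signal found only in input of littermate cells.

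Every group was 1 library, which gives no replicate error, and littermate and wild-type cells cannot be told apart from library preparation or animals. Read depth is unknown for all libraries and the scale of the density is not stated. Densities of a region in several libraries are therefore values side by side and no measure of change. The intervals below cover counting error over regions only, and neighbouring regions are not independent. Times are those of the labels. The file of the littermate library at 3 h has another time in its name beside the labelled one, as do those of both RelA libraries and the Ikaros library at 8 h, and the wild-type files at 0 h name another time only. The weakest hotspot listed had a z score, the authors' own measure of enrichment, of 8.64 in the littermate 3 h list and 8.88 in the wild-type 3 h list. It was 10.9, 10.5 and 10.9 in the littermate 0 h, littermate 8 h and wild-type 8 h lists. The lists thus end at unlike z scores, and they differ in density too. The median MaxD of all hotspots was 4.56, 4.11 and 4.56 for littermate RelA at 0, 3 and 8 h. For wild-type RelA it was 21.1, 18.5 and 25.5, and for Ikaros 22.1, 22.2 and 23.0, at those times. At 8 h littermate RelA had 5288 hotspots and wild-type RelA 1890. Absence from a wild-type list and recurrence in a littermate one are thus unlike measures. What part this has in the shares below was not tested.

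The regions missing in wild type were mostly narrow and of modest density, with a few very strong ones among them. Their width ran from 251 to 1608 bp with a median of 450.5 bp, against 581 bp for the 1645 dense hotspots that wild-type cells listed too. The median MaxD was 14.05 (quartiles 12.2 and 16.7, highest 69.4) against 19.1 (14.97 and 27.1, highest 132). The median z score was 11.7 (quartiles 9.88 and 15.6) against 15.9 (11.8 and 23.6). These values come from the library that chose the regions and are a description.

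The share of dense hotspots that wild type lacked fell with density, from 42.0% (35.7 to 48.6) at a MaxD of 10 to 12, through 37.7% (33.2 to 42.4) at 12 to 15 and 20.3% (17.1 to 23.7) at 15 to 20, to 7.05% (5.39 to 9.04) at 20 or more. These bands held 100, 167, 122 and 57 of the regions. In the bands under 20, regions missing in wild type and those listed there were closer in median z score and width than over all densities. At 12 to 15 the median z scores were 11.1 and 11.2 and the median widths 429 and 442 bp. At 20 or more, a band with no upper limit, the median z scores stayed apart at 20.6 and 24.4. The highest MaxD there was 69.4 and 132, so differences given below for that band are not matched for strength. The hotspots that wild type did list at a littermate MaxD of 10 to 12 had a median MaxD of 19.2 in the wild-type library. The lowest 5% of all hotspots listed there lay under 10.2. For the littermate 3 h list that limit was 2.43.

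The densities close to the floor passed from one side to the other without a gap. The 3 regions just inside it were chr5:46827060-46827311 at 10.1, and chr7:71631683-71632214 and chr15:61831160-61831411, both at 10.06. The 3 hotspots just outside it, free of input and of wild-type RelA at 3 h, were chrX:35838211-35838800, chr19:34657784-34658271 and chr6:71402863-71403129, all at 9.94.

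**Figure D1:**
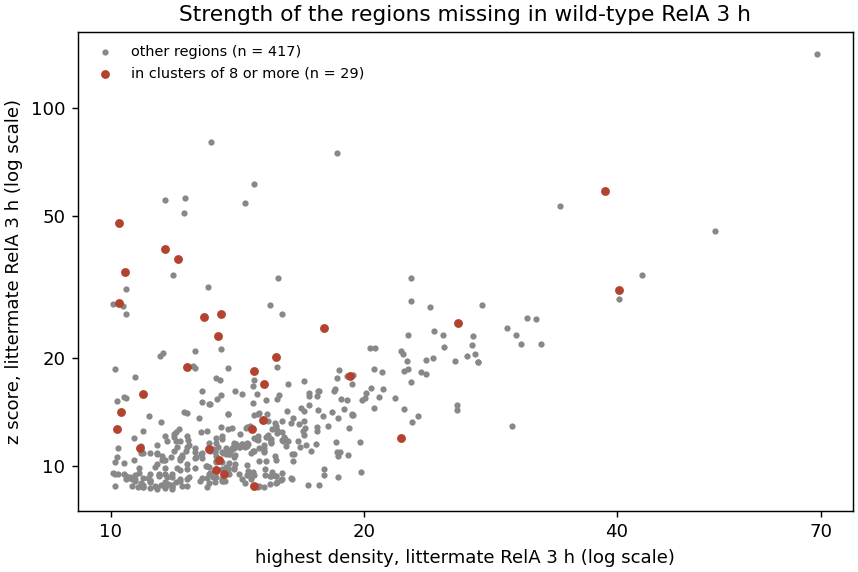
Highest density on the x axis and z score on the y axis, both as deposited for the littermate RelA 3 h library and both on log scales, for each of the 446 regions. Most points lie under a density of 20 and a z score of 20, the 29 regions in clusters of 8 or more are shown in red, and the point at the upper right is the region on chromosome 18 with a density of 69.4 and a z score of 141.

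The 5 densest regions were of differing kinds. The strongest, chr18:43135190-43136010, had a MaxD of 69.4 and a z score of 141 at 3 h, the highest z score of any of the 446. Littermate RelA was listed there at 0 h (MaxD 15.8) and at 8 h (34.3) as well, yet no wild-type RelA or Ikaros list held it, and the nearest wild-type RelA 3 h hotspot lay 533 kb away. On chromosome 4, chr4:3421328-3422050 (MaxD 42.9) and chr4:3687564-3688275 (40.2) showed the same pattern. Littermate RelA there had a MaxD of 26.5 and 46.5 at 0 h and of 38.7 and 22.1 at 8 h, and wild-type RelA and Ikaros were listed at neither. The region chr9:88629902-88630739 (MaxD 40.3) recurred in the littermate 8 h list alone (23.8), with a wild-type 3 h hotspot only 2.73 kb away. The exception among the 5 was chr1:36623043-36623761 (MaxD 52.4 and z 45.4). It was listed by RelA at 8 h in littermate (26.1) and in wild-type cells (19.9), and by Ikaros at 3 h (21.9) and 8 h (30.2). Of the 5 densest regions, 4 were thus seen in littermate libraries only. Whether input of littermate cells had signal there was not tested.

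Most of the regions did not border a wild-type hotspot. A wild-type RelA 3 h hotspot lay within 0.5 kb of 7 regions and within 1 kb of 18, or 4.04% (2.41 to 6.30). Within 10 kb there were 101, or 22.6% (18.8 to 26.8), and within 100 kb 272, or 61.0% (56.3 to 65.5). The median distance was 57.1 kb and the greatest 7735 kb.

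Compared with dense hotspots that wild type listed at 3 h, the regions had a lower share in each of the 7 other RelA and Ikaros lists over the full range of densities, with the interval of each difference below 0. That comparison takes no account of density. In each of the 7 lists the shares lay closer once the others were weighted to the regions' densities. For Ikaros at 0 h the others then gave 5.72% against 0.224% of the regions, and the remaining lists are given below. Of the 446, 91 were in the littermate RelA list at 8 h, 79 in wild-type RelA at 8 h and 21 in littermate RelA at 0 h. Ikaros of wild-type cells was listed at 214 regions at 8 h, at 100 at 3 h and at 1 at 0 h. In all, 221 regions carried Ikaros at some time, 49.6% (44.8 to 54.3), against 87.3% (85.6 to 88.9) of the 1645 others and 79.2% of all dense hotspots. No other list held 154 regions, 34.5% (30.1 to 39.1), against 80 of the others, 4.86% (3.87 to 6.02), and 11.2% of all dense hotspots. These shares are not weighted for density. Most of the lists behind them are of wild-type cells, so they are not independent of the rule either.

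**Figure D2:**
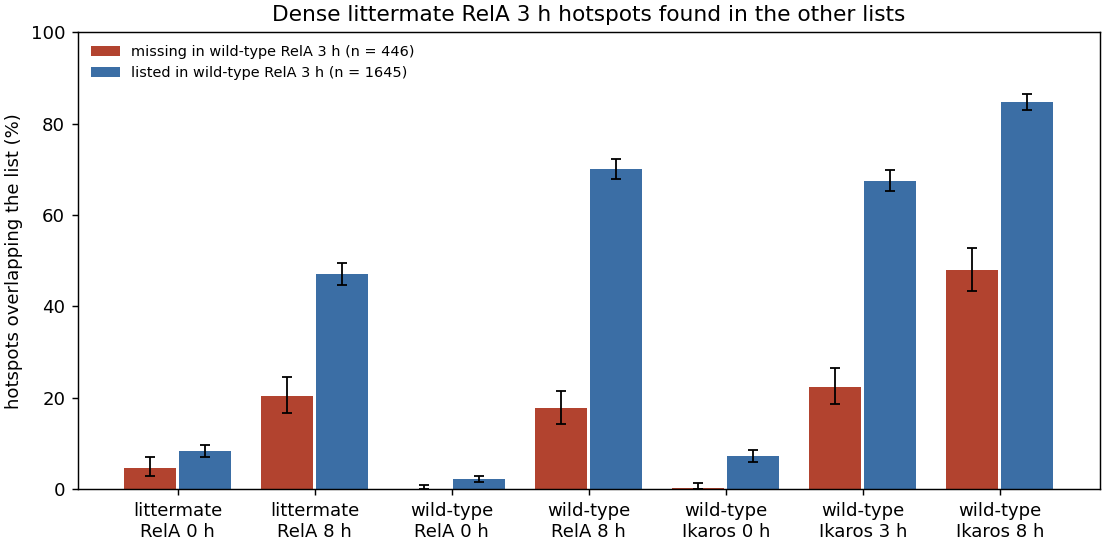
Share of dense littermate RelA 3 h hotspots (y axis, percent) that overlapped each of the 7 other lists (x axis), for the 446 regions missing in wild-type RelA at 3 h (red) and the 1645 listed there (blue). Bars are shares and lines exact 95% intervals over regions. The red bar is the lower of each pair, for example 22.4% against 67.5% for Ikaros at 3 h.

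Within the littermate series, 91 of the 446 regions had RelA at 8 h, 20.4% (16.8 to 24.4), against 774 of the 1645 others, 47.1% (44.6 to 49.5), and 41.4% over all 2091 dense hotspots. The difference was -26.6 percentage points (Newcombe 95% interval -30.9 to -22.0). Much of it went with density. At a MaxD of 10 to 12 the shares were 11.0% and 14.5%, a difference of -3.49 points (-11.8 to 5.58), and at 12 to 15 they were 18.6% and 19.2%, a difference of -0.64 points (-7.87 to 7.17). In these 2 bands, which held 267 of the 446 regions, recurrence at 8 h could not be told apart from that of hotspots wild type listed, though the intervals allow regions to be lower by up to 11.8 points. At 15 to 20 the shares were 18.9% and 31.0% (difference -12.2, -19.5 to -3.39), and at 20 or more 45.6% and 73.5% (-27.9, -40.5 to -14.7). The 1645 hotspots weighted to the regions' own spread over the 4 bands gave 28.3%. Among hotspots that wild-type RelA at 8 h did not hold, the order was the other way. Littermate RelA at 8 h was then at 62 of 367 regions, 16.9% (13.2 to 21.1), and at 50 of 491 others, 10.2% (7.65 to 13.2), not weighted for density. No interval of this difference was calculated, and the wild-type list that splits the sets is not independent of the rule. Clusters described below on chromosomes 8, 17 and X, which also had input hotspots, held 2, 3 and 3 of the 62. None of the others lay in them. What part these clusters have in this order was not tested.

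Before LPS, littermate RelA was listed at 21 of the 446 regions, 4.71% (2.94 to 7.11), against 8.33% (7.04 to 9.77) of the others and 7.56% of all dense hotspots. The difference was -3.62 points (-5.77 to -0.93). With the others weighted to the same bands their share was 4.53%, and in none of the 4 bands did the interval of the difference keep clear of 0. With input hotspots kept the shares were 8.73% (6.46 to 11.5) of 527 regions and 8.41% (7.12 to 9.85) of 1664 others. At 8 of the 21 regions littermate RelA was listed at 8 h as well. Beside those on chromosomes 18 and 4, the densest were chr9:87991001-87991533, with a MaxD of 17.5, 25.9 and 22.2 at 0, 3 and 8 h, and chr13:74666288-74666608, with 34.4 at 0 h and 22.3 at 3 h and none listed at 8 h.

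The 21 regions with RelA before LPS were rarely in the wild-type lists at 8 h. They were not all separate places. Clusters described below held 3 of them on chromosome 8, 2 on chromosome 17, 2 on chromosome Y and 1 on chromosome 9. The stretches on chromosomes 8, 17 and Y had 6, 1 and 10 input hotspots and no wild-type RelA hotspot at 8 h. What part these stretches have in the shares that follow was not tested. Wild-type RelA at 8 h held none of the 21, where 3 counts would allow a share of up to 14.3% and the exact interval ends at 16.1%, but held 122 of 137 in the other set, 89.1% (82.6 to 93.7). Ikaros at 8 h was at 3 of the 21, 14.3% (3.05 to 36.3), and at 125 of the 137, 91.2% (85.2 to 95.4). The 2 groups differ in density, since 6 of the 21 and 105 of the 137 had a MaxD of 20 or more. Under 20, wild-type RelA at 8 h was at 0 of 15 regions (exact interval up to 21.8%) and 21 of 32 others, 65.6% (46.8 to 81.4). Ikaros at 8 h was there at 3 of the 15 and 26 of the 32. The 425 regions without littermate RelA at 0 h had wild-type RelA at 8 h in 18.6% (15.002 to 22.6) and Ikaros at 8 h in 49.6% (44.8 to 54.5).

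Wild-type cells listed RelA at 8 h at 79 of the regions they lacked at 3 h, 17.7% (14.3 to 21.6). Of the hotspots listed at 3 h, 70.2% (67.9 to 72.4) were listed at 8 h too, and of all dense hotspots 59.0%. The difference was -52.4 points (-56.4 to -48.0). It was present in every band and ran from -28.3 points (-38.2 to -17.1) at a MaxD of 10 to 12 to -62.1 (-72.0 to -49.2) at 20 or more. Weighted to the regions' bands the others gave 56.0%. The wild-type 3 h list, which the rule used, and the 8 h list are of cells with the same genotype label, so this measure is not independent of the rule. At the 79 regions the wild-type 8 h library had a median MaxD of 22.2 (7.34 to 76.2), against 30.0 where wild type listed both times. None of the 446 regions was in the wild-type list at 0 h, which allows a share of up to 0.673% by 3 counts and 0.824% by the exact interval, against 35 of 1645 (2.13%) and 1.67% of all dense hotspots. That list held only 83 hotspots. All 35 had a littermate MaxD of 20 or more, where the difference was -4.66 points (-6.41 to 1.78), and weighted to the regions' bands the others gave 0.596%. No difference was thus detectable within a band or after that weighting.

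At 29 regions RelA was listed at 8 h in both series, so that the wild-type 3 h list was the one RelA list after LPS that lacked them. The densest after that on chromosome 1 was chr3:15469975-15470661, with a MaxD of 34.2 in littermate cells at 3 h, 17.6 in littermate cells at 8 h and 9.28 in wild-type cells at 8 h. Next came a pair on chromosome 13, chr13:5786247-5786890 with 32.5, 29.6 and 33.0, and chr13:5827755-5828547 with 31.3, 51.3 and 38.2 in the same order. The last of the 5 was chr10:96904887-96905645, with 27.7, 50.7 and 37.4. A wild-type 3 h hotspot lay 1.19 kb from the first of the chromosome 13 pair.

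**Figure D3:**
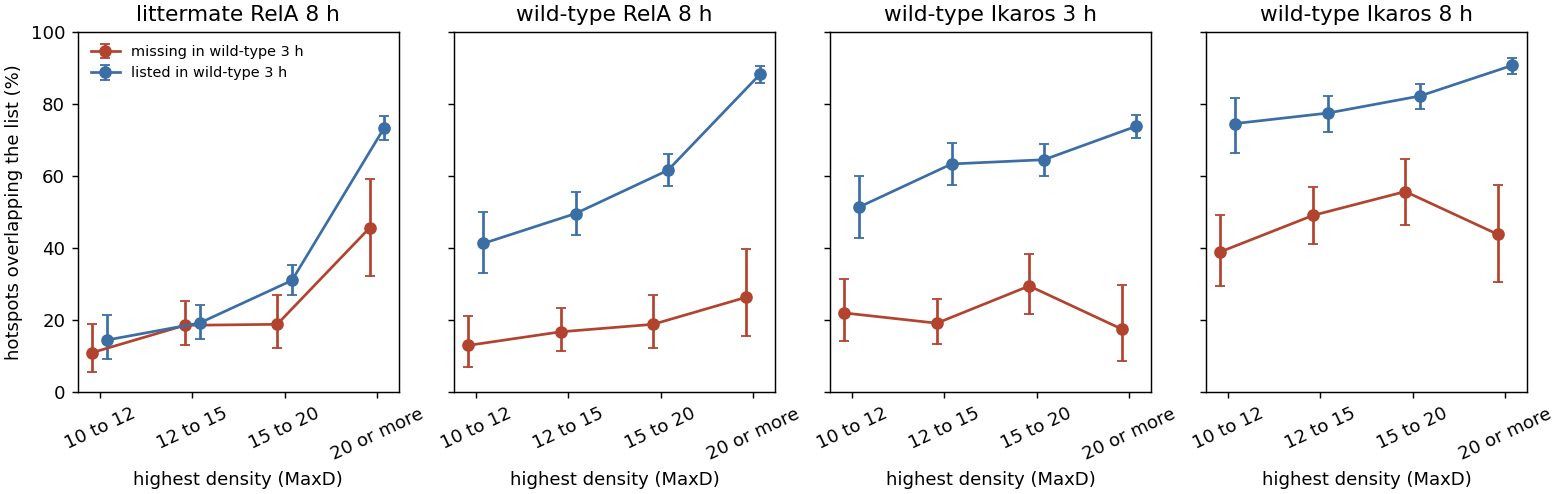
Share of dense littermate RelA 3 h hotspots (y axis, percent) found in 4 other lists (1 panel each) by band of highest density in littermate RelA at 3 h (x axis), for regions missing in wild-type RelA at 3 h (red) and those listed there (blue), with exact 95% intervals over regions. Red and blue meet below a density of 15 for littermate RelA at 8 h (18.6% and 19.2% at 12 to 15), and lie apart in every band of the 3 wild-type lists.

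Ikaros was listed at fewer of the regions than of the hotspots wild type held, at each time. At 3 h it was at 100 of 446, 22.4% (18.6 to 26.6), against 67.5% (65.2 to 69.8) of the others and 57.9% of all dense hotspots, a difference of -45.1 points (-49.4 to -40.4). At 8 h it was at 214, 48.0% (43.3 to 52.7), against 84.7% (82.9 to 86.4) and 76.9%, a difference of -36.8 points (-41.6 to -31.8). Weighted to the regions' bands, the others gave 62.4% at 3 h and 79.9% at 8 h. In each of the 4 bands and at both times the interval of the difference lay below 0. At 0 h Ikaros was at 1 region, 0.224% (0.00568 to 1.24), against 7.23% (6.03 to 8.59) of the others and 5.74% of all dense hotspots. The Ikaros lists held 904, 7161 and 13843 hotspots at 0, 3 and 8 h, so shares at different times rest on lists of unlike length. They are also lists of wild-type cells, in which RelA was not listed at these places at 3 h, and Ikaros in littermate cells was not analysed here.

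Where Ikaros was listed at 8 h, it was listed at 3 h too at a smaller share of the regions than of the other set, not weighted for density. Of the 214 regions with Ikaros at 8 h, 93 had it at 3 h, 43.5% (36.7 to 50.4), and 121 did not, whereas 1069 of 1394 other hotspots with Ikaros at 8 h had it at 3 h, 76.7% (74.4 to 78.9). Only 7 regions had Ikaros at 3 h and not at 8 h. The 79 regions that the wild-type RelA list held at 8 h carried Ikaros at 8 h in 58 cases, 73.4% (62.3 to 82.7), but at 3 h in 14, 17.7% (10.0 to 27.9). The 367 regions that wild-type RelA held at neither time carried it in 156 cases at 8 h, 42.5% (37.4 to 47.7), and in 86 at 3 h, 23.4% (19.2 to 28.1). In the other set Ikaros was at 88.8% at 8 h and 68.8% at 3 h of the 1154 hotspots that wild-type RelA held at 8 h, and at 75.2% and 64.6% of the 491 that it did not. Centres of overlapping hotspots lay close together, a median of 55.0 bp from Ikaros at 3 h and 48.0 bp at 8 h, against 59.5 and 62.5 bp in the other set.

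The densest regions with Ikaros at 3 h, after that on chromosome 1, had their own mixtures of lists. At chr18:75070406-75071006 (RelA MaxD 32.1 at 3 h) Ikaros had a MaxD of 23.5 at 3 h and 26.8 at 8 h, and littermate RelA one of 17.0 at 8 h. At chr10:36999036-36999685 (27.3) and chr16:24506716-24507444 (24.3) Ikaros alone was listed, with 20.0 and 10.5 at 3 h and 29.7 and 28.6 at 8 h. At chr12:12232367-12233024 (24.96) Ikaros was listed at both times (24.8 and 43.7) beside RelA at 8 h in littermate (24.4) and wild-type cells (22.9).

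Sorted by the lists they shared, the 446 regions fell into 6 classes. The first held 154 regions in no other list, 34.5% (30.1 to 39.1), and the second 138 with Ikaros and no other RelA list, 30.9% (26.7 to 35.5). A further class of 51 regions, 11.4% (8.63 to 14.8), was in another littermate RelA list and in no wild-type one, and 24 more, 5.38% (3.48 to 7.90), had Ikaros beside littermate RelA. Wild-type RelA at 8 h held the last 79, 50 without and 29 with another littermate RelA list. Ikaros was at 34 of those 50 and 25 of those 29. Among the 1645 others the shares were 4.86% in no other list, 21.3% with Ikaros only and 0.729% with littermate RelA only. Ikaros beside littermate RelA gave 2.92%, and wild-type RelA at 8 h gave 24.9% without and 45.2% with another littermate list. Most lists that define the classes are of wild-type cells, as is the RelA list that the rule used. The class shares are thus not independent of the rule, nor are they weighted for density.

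**Figure D4:**
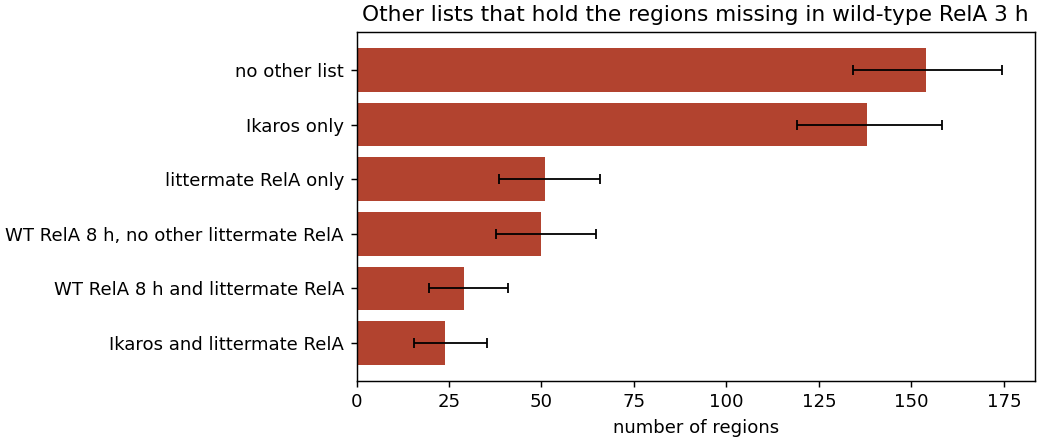
Number of regions (x axis) in each of 6 classes by the other lists that held them (y axis), out of 446. Lines are exact 95% intervals. The 2 wild-type RelA 8 h classes hold regions with and without Ikaros, and the 154 regions in no other list and the 138 with Ikaros alone are the 2 longest bars.

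The 51 regions seen only with littermate RelA had the highest median z score of the 6 classes. It was 21.0 at a median MaxD of 14.4, where the 154 regions in no other list had 11.1 at 13.3 and the 138 with Ikaros only 11.3 at 13.996. Clusters held 11 of the 51 and 16 of the 154, as described below, and 2 and 11 of them lay within 10 kb of an input hotspot. None of the regions of the other 4 classes lay so close to input. Whether these values share a cause was not tested.

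Among the 154 regions in no other list, the densest were chr10:18787992-18788657 (MaxD 30.7), chr12:120328586-120329264 (27.2), chr1:151809768-151810436 (26.9) and chr9:18216640-18217192 (26.6), each 552 to 678 bp wide, with z scores of 20.4 to 21.9. Their mean density was 39.4 to 40.2% of the highest, near the median of 40.5% over all 446. The fifth, chr18:90771828-90772128, was unlike them. It was 300 bp wide with a MaxD of 25.9 but a mean of 2.47, 9.57% of the highest.

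Such sharp hotspots, with a mean density under 25% of the highest, numbered 15 of 446, 3.36% (1.89 to 5.49), against 4 of 1645, 0.243% (0.0663 to 0.621), and 0.909% of all dense hotspots, a limit chosen after the values were seen. None of the 15 carried Ikaros or wild-type RelA at 8 h, 5 were in another littermate RelA list, and 4 lay on the sex chromosomes. Among the 15 were chr8:19872820-19873110, chr8:20015338-20015654, chrX:120115333-120115608, chrX:122004853-122005104 and chrY:2075092-2076072, in stretches described below that also had input hotspots. The rest lay in no cluster of 4 or more regions, though chr10:7233966-7234342 was 0.922 kb from an input hotspot. What part this has in the contrast was not tested. Of the 4 in the other set, all carried Ikaros, 1 was in wild-type RelA at 8 h and 2 were in another littermate RelA list. The mean density of the 3 widest regions was 29.5 to 32.1% of the highest. They were chr5:4052909-4054517, 1608 bp wide with a MaxD of 11.9, chr3:60272360-60273579, 1219 bp with 18.6 and a z of 74.7, and chr2:122491158-122492217, 1059 bp with 30.4. Littermate RelA recurred at all 3, at 0 h on chromosome 5 (12.1), at 0 and 8 h on chromosome 3 (10.7 and 7.24) and at 8 h on chromosome 2 (18.2).

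By chromosome, the interval of the difference between the regions and the other dense hotspots kept clear of 0 on 4 of 21 chromosomes, with no adjustment for their number. The X chromosome held 22 regions, 4.93% (3.12 to 7.37), against 31 of 1645, 1.88% (1.28 to 2.66), a difference of 3.05 points (1.22 to 5.53). It made up 6.31% of the span of the chromosomes in the files. Seen from the X, 22 of its 53 dense hotspots were missing in wild type, 41.5% (28.1 to 55.9). Chromosome 9 held 33 regions, 7.40% (5.15 to 10.2), against 4.68% (3.71 to 5.82), a difference of 2.72 points (0.35 to 5.67), and 8 of the 33 lay in 1 cluster described below. Chromosome 11 held fewer, 20 or 4.48% (2.76 to 6.84), against 7.72% (6.48 to 9.12), a difference of -3.24 points (-5.33 to -0.61). All 4 dense hotspots of the Y chromosome were among the regions, a difference of 0.897 points (0.302 to 2.28). They lay in 1 stretch, chrY:1638418-2376743, with 10 wild-type input hotspots and no hotspot of wild-type RelA at 3 or 8 h or of Ikaros at any time. The littermate RelA lists had 4, 12 and 2 hotspots in it at 0, 3 and 8 h, and wild-type RelA at 0 h had 1.

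**Figure D5:**
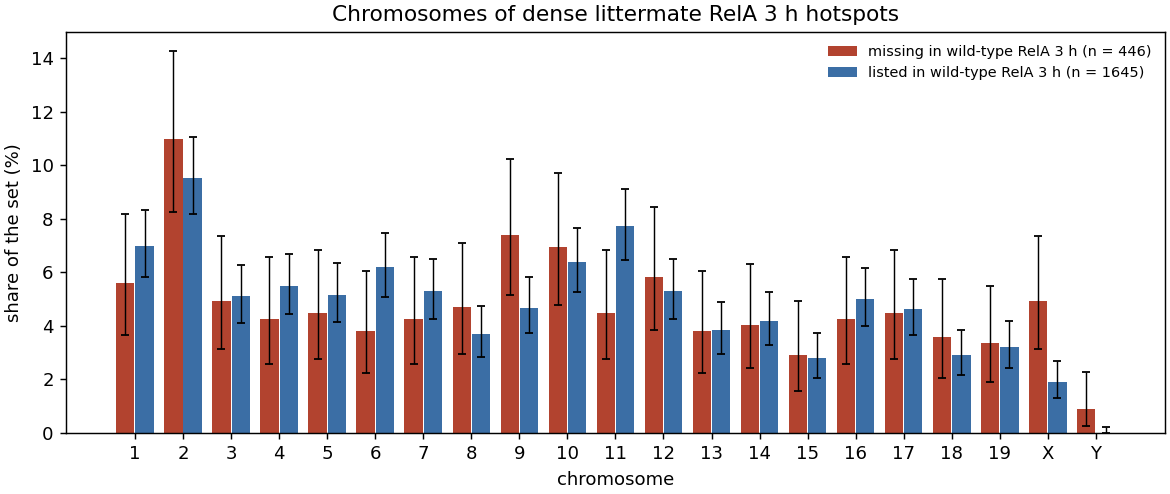
Share of each set (y axis, percent) on each chromosome (x axis), for the 446 regions missing in wild-type RelA at 3 h (red) and the 1645 hotspots listed there (blue). Lines are exact 95% intervals. The lines of red and blue do not meet on the X chromosome (4.93% against 1.88%), and on Y there are 4 red regions and no blue one.

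Of the 22 regions on X, 13 lay in 1 stretch. Runs of regions with gaps of at most 1 Mb, a rule set after the values were seen, gave 10 clusters of 4 or more regions, and 3 of these held at least 8, together 29 regions or 6.50%. The largest held those 13 in 2.56 Mb, chrX:120115333-122670426. Without the 3 large clusters the X held 9 of 417 regions, 2.16%, against 1.88% of all dense hotspots that wild type listed. The higher share on X thus went with the X stretch. In that stretch the wild-type input list had 73 of its 765 hotspots, 9.54%, none of which overlapped the 13 regions, since the rule removed such overlaps. The wild-type RelA lists at 3 and 8 h and the Ikaros lists at 3 and 8 h had no hotspot in it, and wild-type RelA and Ikaros at 0 h had 1 each, whereas the littermate RelA lists had 24, 67 and 24 at 0, 3 and 8 h. The 13 regions had a MaxD of 10.2 to 22.1. Input and littermate RelA signal thus lay in the same stretch, and whether they share a cause was not tested.

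The other large clusters lay on chromosomes 8 and 9. The first packed 8 regions into 167 kb, chr8:19867291-20034325, with 6 input hotspots, 18, 29 and 10 littermate RelA hotspots at 0, 3 and 8 h, and 1 wild-type RelA hotspot at 3 h. Its regions had a MaxD of 10.2 to 14.7 but a median z of 24.6, and none carried Ikaros. The second held 8 regions in 1.11 Mb, chr9:87991001-89100630, with no input hotspot. It differed from the others in that wild-type cells listed 10 RelA hotspots at 3 h and 16 Ikaros hotspots at 8 h in the same stretch, where 4 further dense littermate hotspots did have a wild-type counterpart. Littermate RelA at 8 h was at 4 of its 8 regions and Ikaros at 8 h at 2. A smaller cluster on chromosome 17, chr17:13245055-13559656, had 4 regions with a median z of 41.2, no wild-type RelA or Ikaros hotspot at any time, and 1 input hotspot.

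Over all 446 regions, 13 lay within 10 kb of an input hotspot, 2.91% (1.56 to 4.93), against 2 of 1645, 0.122% (0.0147 to 0.438). The remaining 433 had none so close, and leaving out the 29 clustered regions moved the shares with RelA and Ikaros in other lists by under 3 percentage points (for example Ikaros at 8 h from 48.0% to 50.8%).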

How the data were processed

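Each of 10 files lists the hotspots of 1 library. The build is mm9 and CASAVA was used, per the submitters' processing notes. The sources used here name no aligner or hotspot caller, and neither its threshold nor how input was treated. The authors deposited the highest and mean tag density (a signal of unstated scale) of each hotspot, a z score and a p-value, which was not used. Coordinates are printed as deposited. The gene table at hand is of GRCm38.p6, so no gene was assigned and no sequence read. Overlap meant at least 1 bp. On 2000 regions with 600 planted overlaps, the same 600 were found by these scripts and by bedtools 2.31.1. Shares carry exact Clopper-Pearson intervals (scipy 1.17.1) and differences Newcombe intervals (statsmodels 0.14.6), and the limit for a count of 0 is 3 counts of the total; with 1 library a group no test was possible. Python 3.11.15, pandas 2.3.3, numpy 2.4.6 and matplotlib 3.10.9 were used.

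The regions, bands and lists were chosen with earlier results of these data known. Regions named are the 5 densest overall and the 5 densest in both 8 h RelA lists, in littermate RelA at 0 h, with Ikaros at 3 h and in no other list, the 3 widest, and 3 on either side of the density floor. Clusters and sharp hotspots were described after their values were seen. Alternatives were another density floor, a 1 kb gap, input kept, absence from all wild-type RelA lists, reciprocal overlap, a floor on the lists searched and, added after seeing the data, large clusters left out.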

Additional observations from a re-analysis of the deposited data

How the results depend on the processing

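The bounds were the 95% interval for a share and a factor of 1.5 for the number of regions. Among 44 alternatives to 7 results, 35 gave a value inside these bounds and 9 outside. Some alternatives kept most of the regions, such as the 1 kb gap with 428 of 446, which leaves a share little room to move. The 35 are thus not independent agreements. Apart from littermate RelA at 0 h with input kept, these values are of the regions alone. How the differences from the other dense hotspots would move was not examined. A MaxD floor of 15 left 179 regions and raised the share in littermate RelA at 8 h to 27.4%. With input hotspots kept, the shares were 8.73% for littermate RelA at 0 h, 41.6% for Ikaros at 8 h and 7.78% for the X chromosome. Absence from wild-type RelA at 0, 3 and 8 h gave 42.5% with Ikaros at 8 h. Reciprocal overlap of at least 50% gave 16.4% with Ikaros at 3 h and 35.2% at 8 h. Without the large clusters, an alternative chosen after seeing the data, the X chromosome held 2.16%. No paired analysis was possible because each group has 1 library and these values come from no test, and no library could be left out. Depth is unknown, so the weakest enrichment each library could show is too.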
